A study of Homo sapiens with 2 samples.

Results

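Transcripts of 7 DNA repair genes were followed in a long-read single-cell RNA library of 3 pooled human ovarian cancer cell lines: PARP1, PARP2, MSH6, PMS2, BRCA1, BRCA2 and RAD51C. They were taken by gene name and are 7 of 57110 gene entries, of which 17806 had a count. The 7 genes are represented by 31 of the 99493 listed transcripts, and each of the 7 had counts. IGROV1, SK-OV-3 and COV504, established lines grown from ovarian tumours, were trypsinised and mixed in equal parts with no treatment. Each of the 2 platforms, Illumina and PromethION (nanopore reads of whole cDNA), gave 1 library from this mix. All values are estimated counts from the PromethION library, so nothing here has a replicate, no test was made, and every interval is a 95% interval that covers counting error only.

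PARP1 and PARP2 bind DNA breaks and build chains of ADP-ribose that call in repair proteins. In mismatch repair, MSH6 is part of the complex that recognises mispaired bases, and PMS2 part of the complex that cuts the faulty strand. In homologous recombination, which copies the sister chromatid to mend a double-strand break, BRCA1 promotes trimming of the break ends, BRCA2 helps to load the strand-exchange protein onto DNA, and RAD51C belongs to a group of proteins that assist this step. Tumours that lack BRCA1 or BRCA2 function are known to be sensitive to PARP inhibitors, and these drugs are used in ovarian cancer.

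The library was split into 3 groups of barcodes by marker genes that include none of the 7. Of 2462 barcodes, 2129 had at least 1000 counts, and 1886 of these had at least 75% of their marker counts in 1 marker set. The sets were ERBB2, NNMT, TSPAN1 and DHRS2 (ERBB2-high, 648 barcodes), RARRES2 and TMEM100 (RARRES2-high, 473 barcodes), and FOLR1, CLDN3, DEFB1 and CXCL14 (FOLR1-high, 765 barcodes). Median depth was 4953, 6262 and 5289 counts in that order. The ERBB2-high cells were SK-OV-3-like: GRB7, MIEN1, STARD3 and PGAP3, which lie beside ERBB2 in the amplified region of SK-OV-3, were highest there. CDKN2A, another gene listed for SK-OV-3 as low, had 1, 0 and 88 counts in ERBB2-high, RARRES2-high and FOLR1-high cells and so did not set ERBB2-high cells apart. Of the IGROV1 markers FOLR1 and CLDN3 were part of the rule. Of those outside it PAX8 was highest in FOLR1-high cells (143 CPM, counts scaled to 1000000 counts of the line, against 101 and 95.03) and CDH1 and ESRP1 were highest in RARRES2-high cells, so neither of those groups was given a line's name. Markers of T cells, B cells and fibroblasts (CD3E, MS4A1, DCN) had 0 counts in all 3 groups, and the leukocyte gene PTPRC had 0, 1 and 1. The endothelial gene PECAM1 had 4, 0 and 8 counts, and CD68, a lysosomal gene high in macrophages, ran from 549 to 1137 CPM. All 2462 barcodes were also on the Illumina list.

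PARP2 and RAD51C were the members with a transcript whose share of the gene differed by at least 20 percentage points between lines, and the sequences that tell their forms apart are shown first. Exon 2 of PARP2 has 2 alternative ends. In transcript ENST00000250416 the exon runs on for 39 coding bases (GRCh38, chr14:20345088-20345126, plus strand), which keep the reading frame, and in ENST00000429687 it stops before them. The first line below has 30 bases of exon before the extra 39 (in capitals) and 30 bases of the next exon after them. The second line shows the form without them, with the 2 bases that meet at the junction in capitals. The extra 39 bases begin with GT, the letters of a splice donor.
PARP2 long exon 2: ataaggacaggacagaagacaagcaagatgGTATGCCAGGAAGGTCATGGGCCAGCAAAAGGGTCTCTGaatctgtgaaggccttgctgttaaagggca
PARP2 short exon 2: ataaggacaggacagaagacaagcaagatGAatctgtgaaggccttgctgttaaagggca

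RAD51C has a 2-exon form, ENST00000421782, that reads on into intron 2 for 147 bases (GRCh38, chr17:58695190-58695336, plus strand), where the 9-exon form ENST00000337432 splices to exon 3. The lines below share the last 60 bases of exon 2. In the short form the capitals are the bases up to and including the stop codon TAA, which comes 1 base past the splice donor. In the full-length form the capitals are exon 3. The short form has 405 coding bases against 1128 in the full-length form.
RAD51C short form: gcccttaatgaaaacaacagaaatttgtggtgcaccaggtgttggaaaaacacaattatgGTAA
RAD51C full-length form: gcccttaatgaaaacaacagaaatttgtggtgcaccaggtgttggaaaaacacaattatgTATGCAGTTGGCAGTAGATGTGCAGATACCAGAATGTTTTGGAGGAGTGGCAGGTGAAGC

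The level of each gene in each line is plotted first, as CPM. MSH6, PMS2 and BRCA1 were at least 2-fold apart between ERBB2-high and FOLR1-high cells, and PARP1, PARP2, BRCA2 and RAD51C were not. Of all entries with at least 50 counts in the pair of lines, 34.1% were at least 2-fold apart between ERBB2-high and RARRES2-high cells, 35.3% between ERBB2-high and FOLR1-high cells, and 34.8% between RARRES2-high and FOLR1-high cells. Among the members the counts were 0 of 6, 3 of 7 and 1 of 7. That lies above the share of all entries in the pair of ERBB2-high and FOLR1-high cells and below it in the other 2 pairs, and nothing is read from so few genes. The median entry was itself 0.45 higher on the log2 scale in ERBB2-high than in FOLR1-high cells, and 0.11 with mitochondrial and ribosomal protein genes left out of the scaling. Ribosomal protein genes held 11.5% of the counts in ERBB2-high cells, 13.9% in RARRES2-high cells and 25.5% in FOLR1-high cells.

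**Figure D1:**
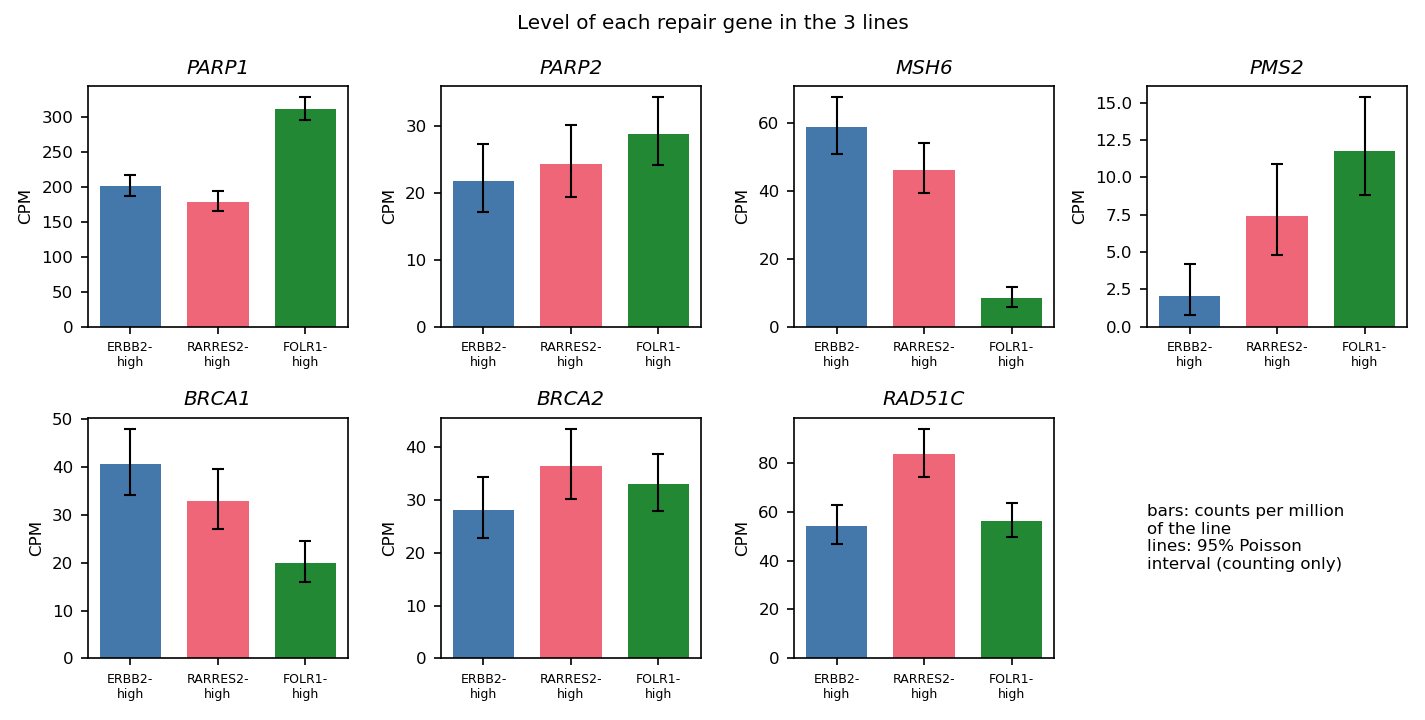
Level of the 7 repair genes in the 3 lines, with CPM on a linear vertical axis that starts at 0 and a scale of its own for each gene, 95% Poisson intervals as black lines. MSH6 falls to 8.42 CPM in FOLR1-high cells and PMS2 to 2.03 CPM in ERBB2-high cells, while PARP1 is highest in FOLR1-high cells at 312 CPM.

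PARP1 (ENSG00000143799, chr1:226360691-226408079, minus strand) had 696 counts in ERBB2-high, 605 in RARRES2-high and 1407 in FOLR1-high cells. These are 202 CPM (interval 187 to 218), 179 CPM (165 to 194) and 312 CPM (296 to 328). PARP1 was 1.74-fold higher in FOLR1-high than in RARRES2-high cells (1.58 to 1.92) and 1.54-fold higher than in ERBB2-high cells (1.41 to 1.69). The ratio between ERBB2-high and RARRES2-high cells was 1.13 (1.01 to 1.26). With mitochondrial and ribosomal protein genes left out of the scaling, that ratio was 1.09 (0.980 to 1.22), and the level in RARRES2-high cells was 0.468 of that in FOLR1-high cells (0.424 to 0.515), past 2-fold. After every barcode was thinned to 2000 counts, PARP1 was found in 35.1% of ERBB2-high barcodes (31.3 to 39.1%), 26.2% of RARRES2-high barcodes (22.1 to 30.5%) and 45.0% of FOLR1-high barcodes (41.4 to 48.7%). This left out 42, 30 and 32 shallower barcodes, and without thinning the shares were 59.7%, 59.8% and 75.6%. PARP1 was read almost entirely as 1 transcript, the 23-exon ENST00000366794, with 99.8% of the counts in RARRES2-high cells and over that share in the other lines.

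PARP2 (ENSG00000129484, chr14:20343582-20357905, plus strand), the second PARP that responds to DNA breaks, had 75, 82 and 130 counts in ERBB2-high, RARRES2-high and FOLR1-high cells. The levels were 21.8 CPM (17.1 to 27.3), 24.3 CPM (19.3 to 30.1) and 28.8 CPM (24.1 to 34.2), and all 3 intervals overlapped. The ratio of FOLR1-high to ERBB2-high cells was 1.32 (0.987 to 1.78), an interval that includes 1. Whether the total differed depended on the scaling, since with mitochondrial and ribosomal protein genes left out of it this ratio was 1.68 (1.25 to 2.26) and that of FOLR1-high to RARRES2-high cells 1.46 (1.097 to 1.946). The ratio of ERBB2-high to FOLR1-high cells was 0.757, and it was 0.613 as a mean over single barcodes and 0.367 with only the estimates that were whole for 1 transcript, described below, where that of RARRES2-high to FOLR1-high cells was 0.314. Transcripts with the 39 bases printed above held 52.9% of PARP2 counts in ERBB2-high cells (41.4 to 65.0%), 76.8% in RARRES2-high cells (66.2 to 85.4%) and 24.7% in FOLR1-high cells (17.5 to 32.9%). None of these 3 intervals overlapped another.

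The share of 1 PARP2 transcript differed by 23.9 percentage points between ERBB2-high and RARRES2-high cells, by 28.2 between ERBB2-high and FOLR1-high cells and by 52.1 between RARRES2-high and FOLR1-high cells. A difference of at least 20 points was found in 3.18%, 2.92% and 4.02% of the entries with 2 or more transcripts and at least 20 counts in both lines. As a level, the form with the 39 bases had 11.6 CPM in ERBB2-high cells (8.30 to 15.8), 18.7 CPM in RARRES2-high cells (14.3 to 23.9) and 7.09 CPM in FOLR1-high cells (4.85 to 10.0). The form without them had 10.2 CPM (7.08 to 14.1), 5.62 CPM (3.39 to 8.78) and 21.7 CPM (17.6 to 26.5). RARRES2-high cells therefore held the most of the long form and FOLR1-high cells the most of the short form.

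Most PARP2 counts were split by the authors' estimation between transcripts that a read could not tell apart, and 35.9% of the counts in the lines came from values that were whole for 1 transcript. Among those alone, 7 of 19 counts had the 39 bases in ERBB2-high cells, 15 of 16 in RARRES2-high cells and 8 of 68 in FOLR1-high cells. These shares of 36.8% (16.3 to 61.6%), 93.7% (69.8 to 99.8%) and 11.8% (5.22 to 21.9%) kept RARRES2-high cells highest. The interval of ERBB2-high cells then overlapped that of FOLR1-high cells. Another transcript, the 15-exon ENST00000527915, also has the 39 bases and held 11.1% of PARP2 counts in ERBB2-high, 22.6% in RARRES2-high and 3.86% in FOLR1-high cells.

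**Figure D2:**
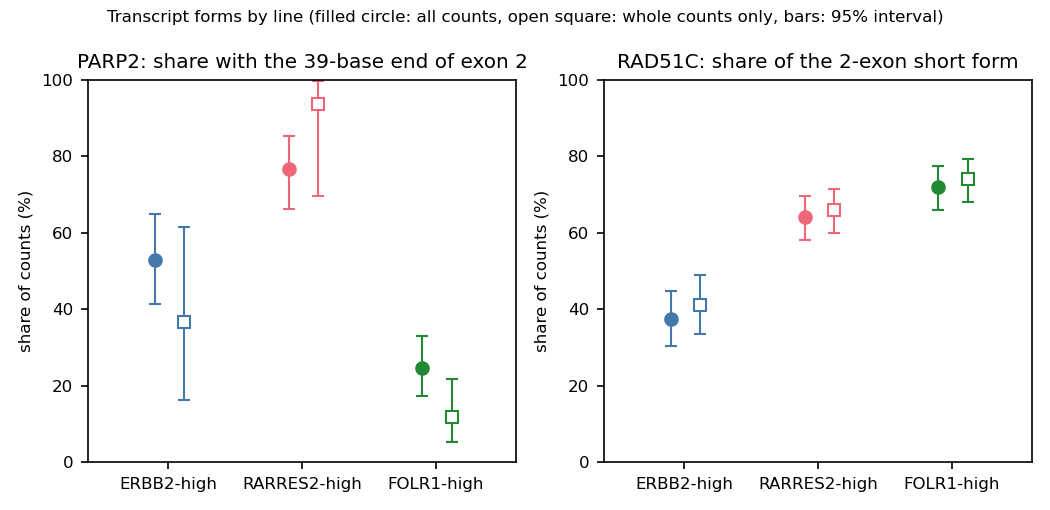
Share of PARP2 counts with the 39-base end of exon 2 and share of RAD51C counts in the 2-exon short form, in percent, by line. Filled circles use all counts and open squares only counts that were whole for 1 transcript, with 95% Clopper-Pearson intervals. PARP2 runs from 24.7% in FOLR1-high to 76.8% in RARRES2-high cells, and RAD51C from 37.4% in ERBB2-high to 71.9% in FOLR1-high cells.

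MSH6 (ENSG00000116062, chr2:47783082-47810101, plus strand) had 202, 156 and 38 counts in ERBB2-high, RARRES2-high and FOLR1-high cells. The levels were 58.7 CPM (50.9 to 67.4), 46.2 CPM (39.2 to 54.0) and 8.42 CPM (5.96 to 11.6). MSH6 was thus 6.97-fold higher in ERBB2-high than in FOLR1-high cells (4.91 to 10.1) and 5.49-fold higher in RARRES2-high than in FOLR1-high cells (3.83 to 8.04), whereas ERBB2-high and RARRES2-high cells differed 1.27-fold (1.03 to 1.58), or 1.23-fold (0.994 to 1.53) with mitochondrial and ribosomal protein genes left out of the scaling. Between ERBB2-high and FOLR1-high cells 26.0% of all entries were at least 2-fold higher in the first, and between RARRES2-high and FOLR1-high cells 21.9%. Only 37 of 765 FOLR1-high barcodes held an MSH6 count. After thinning to 2000 counts the share with a count was 10.9% in ERBB2-high (8.52 to 13.6%), 9.93% in RARRES2-high (7.31 to 13.1%) and 1.77% in FOLR1-high barcodes (0.948 to 3.01%).

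The low MSH6 level held in both states of the FOLR1-high cells, a split chosen after seeing the data. It was 10.8 CPM in the 257 barcodes led by CXCL14 (6.04 to 17.8) and 6.40 CPM in the 189 led by DEFB1 (2.76 to 12.6). The 20 expressed entries nearest to MSH6 differed less, though not all by much. Their median log2 ratio of ERBB2-high to FOLR1-high cells was 0.71 against 2.80 for MSH6, and 0 of the 20 were above MSH6 in that ratio or in the ratio of RARRES2-high to FOLR1-high cells. ACYP2 and RTN4 among them were also clearly lower in FOLR1-high cells. ACYP2 had 2.08 and 2.34 in these ratios and RTN4 2.22 and 1.74, where MSH6 had 2.80 and 2.46. FBXO11, a ubiquitin ligase gene on the opposite strand whose span overlaps MSH6 by 20780 bases, had 26.1, 9.47 and 13.5 CPM and was 1.94-fold higher in ERBB2-high than in FOLR1-high cells (1.38 to 2.72). No source used here says whether strand was used in counting, so reads of the overlap cannot be told apart. Only 13.4% of MSH6 counts were whole for 1 transcript, and with those alone the ratio to FOLR1-high cells was 3.10 for ERBB2-high and 1.94 for RARRES2-high cells.

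PMS2 (ENSG00000122512, chr7:5973239-6009125, minus strand) was the member with the fewest counts, 7 in ERBB2-high, 25 in RARRES2-high and 53 in FOLR1-high cells. The levels were 2.03 CPM (0.818 to 4.19), 7.40 CPM (4.79 to 10.9) and 11.7 CPM (8.79 to 15.4). PMS2 was 5.77-fold higher in FOLR1-high than in ERBB2-high cells (2.62 to 15.1), where 9.36% of all entries were at least 2-fold higher in that direction. The RARRES2-high level was 3.64 times the ERBB2-high level (1.53 to 9.97) on 32 counts in the pair, under the minimum of 50, and 13.0% of the entries tested in that pair were at least 2-fold higher in RARRES2-high cells. The ratio of FOLR1-high to RARRES2-high cells was 1.59 (0.968 to 2.66), and 1.95 (1.19 to 3.27) with mitochondrial and ribosomal protein genes left out of the scaling, so only the first interval includes 1. With only whole estimates the ratio of ERBB2-high to RARRES2-high cells was 0.654 in place of 0.275, and that of RARRES2-high to FOLR1-high cells 0.286 in place of 0.630. The share of barcodes with PMS2 after thinning was 0.330% in ERBB2-high (0.0400 to 1.19%), 1.35% in RARRES2-high (0.499 to 2.92%) and 2.86% in FOLR1-high barcodes (1.78 to 4.35%). Genes high in 1 line were read in the other lines at the same depth as a measure of background. In ERBB2-high cells RGCC, HSD17B2, ANKRD1 and KRT24 gave 0 to 0.165% and MOXD1 1.16% (0.466 to 2.37%). The interval of PMS2 overlapped all of these, so by this measure its share there could not be told from background. In RARRES2-high cells HSD17B2, KRT24 and MOXD1 gave 0 and GRB7 was found in 6 of 443 barcodes, the same number as PMS2. In FOLR1-high cells RGCC gave 0 (up to 0.502%), ANKRD1 0.546% (0.149 to 1.39%) and GRB7 5.59% (4.04 to 7.51%). The MSH6 interval there lay above that of RGCC, overlapped that of ANKRD1 and lay below that of GRB7. Whether GRB7 is expressed outside ERBB2-high cells was not tested, nor whether MOXD1 is expressed in ERBB2-high cells, where it had 30 counts against 0 in RARRES2-high cells. In their own lines these genes ran from 45.4 CPM (HSD17B2) to 114 CPM (ANKRD1), above any PMS2 level. Their shares elsewhere are therefore a rough guide and do not measure the background of PMS2 itself.

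PMS2 and AIMP2, which encodes a scaffold protein of the aminoacyl-tRNA synthetase complex, are transcribed in opposite directions from neighbouring start sites. AIMP2 had 23.5 CPM in ERBB2-high, 53.9 CPM in RARRES2-high and 58.7 CPM in FOLR1-high cells, the same order as PMS2. AIMP2 was 2.29-fold higher in RARRES2-high (1.75 to 3.01) and 2.49-fold higher in FOLR1-high (1.94 to 3.24) than in ERBB2-high cells. The 20 expressed entries nearest to PMS2 had a median log2 ratio of ERBB2-high to FOLR1-high cells of -0.28, against -2.53 for PMS2 and 0.46 for all entries with at least 50 counts over the 3 lines. All 20 lay above PMS2. AIMP2, at -1.32, was not alone among them, since ZDHHC4 had -1.77 and USP42 -1.35. Others went the other way, such as FSCN1 at 3.15 and CYTH3 at 1.16. PMS2 has near-identical copies in the genome, of which PMS2CL was listed at 0 in every line, and how reads were divided among the copies was not tested. Whether PMS2 and AIMP2 share control was not tested. The 250 bases upstream of a RefSeq start of PMS2, which reach into AIMP2, are printed below (GRCh38.p14, chr7:6009107-6009356, minus strand, capitals mark CCAAT on either strand).
PMS2 upstream: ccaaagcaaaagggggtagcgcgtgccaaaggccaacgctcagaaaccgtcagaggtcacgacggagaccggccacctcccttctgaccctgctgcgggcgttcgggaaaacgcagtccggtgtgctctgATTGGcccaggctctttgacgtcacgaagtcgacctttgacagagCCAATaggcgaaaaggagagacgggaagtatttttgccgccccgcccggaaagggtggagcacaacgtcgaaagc

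**Figure D3:**
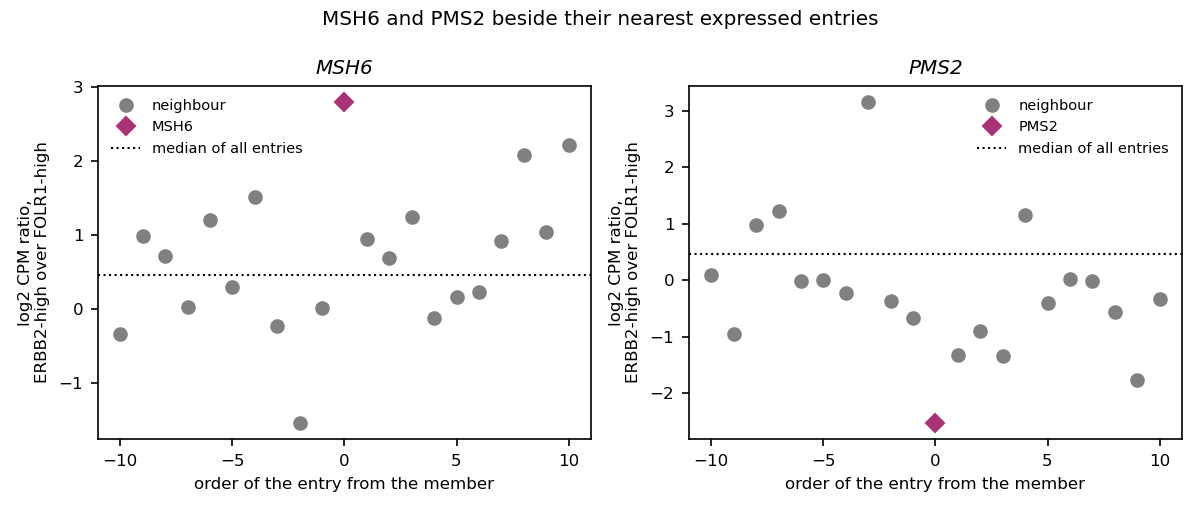
MSH6 and PMS2 (diamonds) beside the 10 nearest expressed entries on each side (grey points), with the log2 CPM ratio of ERBB2-high over FOLR1-high cells on the vertical axis and the order along the chromosome on the horizontal axis. MSH6 at 2.80 lies above all 20 neighbours and PMS2 at -2.53 below all 20, and the dotted line is the median of all entries at 0.46.

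MSH3 had its levels in the same order of lines as MSH6, while MLH3 and PMS1 had theirs in another order than PMS2. MSH3, which recognises larger loops, had 17.1 CPM in ERBB2-high, 10.95 CPM in RARRES2-high and 5.98 CPM in FOLR1-high cells and was 2.87-fold higher in ERBB2-high than in FOLR1-high cells (1.79 to 4.70). MLH3 and PMS1, both MutL homologues, were lowest in RARRES2-high cells, at 7.40 and 9.47 CPM. FOLR1-high cells had the highest PMS2 value and the lowest MSH6 value of the 3 lines.

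**Figure D4:**
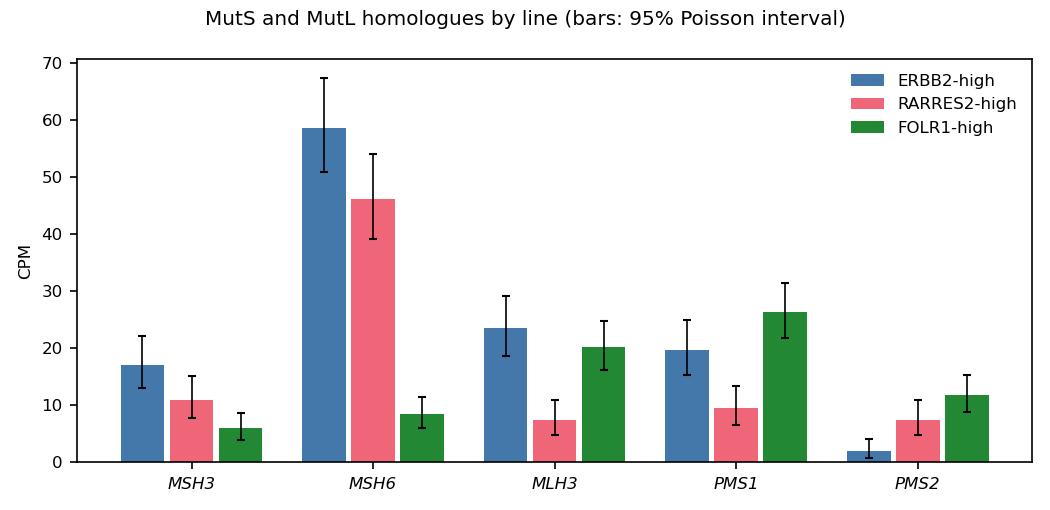
CPM of the MutS homologues MSH3 and MSH6 and the MutL homologues MLH3, PMS1 and PMS2 in the 3 lines, on a linear axis from 0 with 95% Poisson intervals. MSH6 is lowest in FOLR1-high cells at 8.42 CPM and PMS2 in ERBB2-high cells at 2.03 CPM, while MLH3 and PMS1 are lowest in RARRES2-high cells; bar heights compare lines within a gene, not genes with each other.

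BRCA1 (ENSG00000012048, chr17:43044295-43125483, minus strand) had 140 counts in ERBB2-high, 111 in RARRES2-high and 90 in FOLR1-high cells. The levels were 40.7 CPM (34.2 to 48.0), 32.9 CPM (27.03 to 39.57) and 19.9 CPM (16.03 to 24.50). BRCA1 was 2.04-fold higher in ERBB2-high than in FOLR1-high cells (1.55 to 2.69) and 1.65-fold higher in RARRES2-high than in FOLR1-high cells (1.24 to 2.20). The first ratio fell to 1.61 when mitochondrial and ribosomal protein genes were left out of the scaling, to 1.79 as a mean over single barcodes, to 1.998 and 1.87 with marker shares of 60% and 90%, and to 1.88 with CXCL14-led barcodes alone, so the 2-fold call on BRCA1 does not hold there. It was 2.83 with DEFB1-led barcodes alone and 5.24 with only whole estimates, where that of RARRES2-high to FOLR1-high cells was 3.69. After thinning, BRCA1 was found in 4.29%, 6.09% and 3.82% of the barcodes, an order that differs from that of the CPM, and no order is read from those shares. In ERBB2-high cells 33 barcodes held 2 or more BRCA1 counts, against 18 in RARRES2-high and 8 in FOLR1-high cells. The 20 expressed entries nearest to BRCA1 had a median log2 ratio of ERBB2-high to FOLR1-high cells of 0.73. BRCA1 had 1.03, and 7 of the 20 lay above it. For RARRES2-high to FOLR1-high cells the median was 0.04, against 0.72 for BRCA1.

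BRCA2 (ENSG00000139618, chr13:32315474-32400266, plus strand) had 97, 123 and 149 counts in the 3 lines in the same order. The levels were 28.2 CPM (22.9 to 34.4), 36.4 CPM (30.3 to 43.4) and 33.0 CPM (27.9 to 38.7). In CPM the intervals of all 3 BRCA2 ratios include 1, and the widest ratio was 1.29 (0.982 to 1.70) for RARRES2-high over ERBB2-high cells. With mitochondrial and ribosomal protein genes left out of the scaling, BRCA2 was 1.49-fold (1.14 to 1.94) higher in FOLR1-high and 1.33-fold (1.01 to 1.76) higher in RARRES2-high than in ERBB2-high cells. With CXCL14-led FOLR1-high barcodes alone, the ratio of ERBB2-high to FOLR1-high cells turned from 0.854 to 1.22 and that of RARRES2-high to FOLR1-high cells rose from 1.103 to 1.581. The order of the lines in BRCA2 is therefore not read.

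RAD51C (ENSG00000108384, chr17:58692573-58735611, plus strand) had 187, 282 and 254 counts in ERBB2-high, RARRES2-high and FOLR1-high cells. The levels were 54.3 CPM (46.8 to 62.7), 83.5 CPM (74.0 to 93.8) and 56.3 CPM (49.6 to 63.6). RAD51C was 1.54-fold higher in RARRES2-high than in ERBB2-high cells (1.27 to 1.86) and 1.48-fold higher than in FOLR1-high cells (1.25 to 1.77). Much of this total was the short form with the early stop printed above. That form held 37.4% of RAD51C counts in ERBB2-high cells (30.5 to 44.8%), 64.1% in RARRES2-high cells (58.3 to 69.8%) and 71.9% in FOLR1-high cells (66.1 to 77.5%).

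The RAD51C shares differed by 26.6 points between ERBB2-high and RARRES2-high cells, by 34.5 between ERBB2-high and FOLR1-high cells and by 8.30 between RARRES2-high and FOLR1-high cells. PARP2 and RAD51C were the members past 20 points in both comparisons with ERBB2-high cells, and PARP2 alone between the other 2 lines. RAD51C reads were well resolved, with 94.2% of counts whole for 1 transcript, and those alone gave 68 of 165, 178 of 270 and 182 of 246 counts for the short form. Split by form, the order of the lines changed. The short form had 20.3 CPM in ERBB2-high cells (15.9 to 25.7), 53.6 CPM in RARRES2-high cells (46.1 to 62.0) and 40.5 CPM in FOLR1-high cells (34.9 to 46.8). The other RAD51C transcripts, nearly all of them the full-length form, had 34.0 CPM (28.1 to 40.7), 29.9 CPM (24.4 to 36.3) and 15.7 CPM (12.3 to 19.8). They were 2.16-fold higher in ERBB2-high (1.60 to 2.95) and 1.90-fold higher in RARRES2-high (1.39 to 2.61) than in FOLR1-high cells, while the RAD51C total of FOLR1-high cells was 1.04 times that of ERBB2-high cells (0.854 to 1.26). With mitochondrial and ribosomal protein genes left out of the scaling, that total was 1.31-fold (1.08 to 1.59) higher in FOLR1-high than in ERBB2-high cells, and 1.21-fold (1.02 to 1.44) higher in RARRES2-high than in FOLR1-high cells. The other transcripts were then 1.70-fold (1.26 to 2.32) and 1.55-fold (1.13 to 2.13) higher in ERBB2-high and RARRES2-high than in FOLR1-high cells, and the short form had a ratio of RARRES2-high to FOLR1-high cells of 1.08 (0.871 to 1.33). How reads came to end in intron 2 was not tested.

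No other member passed 20 points in a pair of lines. The 3426-base exon 10 of BRCA1 (chr17:43091435-43094860), which is all coding, was in 78.1% of BRCA1 counts in ERBB2-high (70.1 to 84.4%), 72.9% in RARRES2-high (63.7 to 81.0%) and 71.6% in FOLR1-high cells (60.6 to 80.2%). The largest share difference of 1 BRCA1 transcript was 16.1 points, between ERBB2-high and FOLR1-high cells, for ENST00000357654, and 94.9% of all entries were at or below that. Between ERBB2-high and RARRES2-high cells it was 10.9 points, with 86.5% of entries at or below it. At a limit of 10 points BRCA1 thus joined PARP2 and RAD51C in both pairs with ERBB2-high cells, where 15.8% and 15.4% of all entries passed. Only 9.07% of BRCA1 counts were whole for 1 transcript, so these shares rest on the authors' estimation. The 2 listed BRCA2 transcripts differ in their non-coding ends, and ENST00000380152 held 52.5%, 54.8% and 54.3% of the counts. The 170-base exon 3 of MSH6 was in 86.9%, 83.1% and 91.2% of its counts, and the 103-base exon 4 of PMS2 in 66.7%, 74.0% and 73.3%, the first of these on 7 counts.

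Repair by recombination is known to act in the S and G2 phases of the cell cycle, and the members were therefore read along 2 fixed lists of cycle genes that hold none of them. Within each line, barcodes were ranked by the share of their counts in 21 S-phase genes, and equal numbers from the top and the bottom of the ranking were compared (216 barcodes at each end in ERBB2-high, 157 in RARRES2-high and 255 in FOLR1-high cells). BRCA1 and BRCA2 had the highest ratios of the 7 in ERBB2-high and FOLR1-high cells, while MSH6 and BRCA1 had the highest in RARRES2-high cells. In ERBB2-high cells BRCA1 had 91.0 CPM at the top and 8.06 CPM at the bottom, a ratio of 11.3 (5.31 to 28.7). In FOLR1-high cells the BRCA1 values were 39.2 and 2.32 CPM, a ratio of 16.9 (5.53 to 83.9), and in RARRES2-high cells 50.9 and 18.1 CPM, a ratio of 2.81 (1.66 to 4.94). BRCA2 had 83 counts against 2 in ERBB2-high cells (ratio 27.6, 7.39 to 231), 101 against 6 in FOLR1-high cells (12.9, 5.73 to 36.0) and 57 against 26 in RARRES2-high cells (2.20, 1.36 to 3.64).

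Among the other members PARP2 had a ratio of 4.48 in ERBB2-high (2.12 to 10.9) and 2.37 in FOLR1-high cells (1.46 to 3.97), and 1.28 in RARRES2-high cells (0.704 to 2.34). MSH6 had 2.83 in RARRES2-high (1.82 to 4.52), 1.58 in ERBB2-high (1.08 to 2.34) and 1.63 in FOLR1-high cells (0.666 to 4.36), the last an interval that includes 1. PARP1 had 1.43 in ERBB2-high, 2.23 in RARRES2-high and 1.16 in FOLR1-high cells, and RAD51C 1.88, 1.64 and 1.53. PMS2 had 1.33, 0.878 and 0.724, on 6 to 35 counts, with intervals that all include 1. Members at least 2-fold higher at the top numbered 3 in ERBB2-high cells (PARP2, BRCA1, BRCA2), 4 in RARRES2-high cells (PARP1, MSH6, BRCA1, BRCA2) and 3 in FOLR1-high cells (PARP2, BRCA1, BRCA2). Of all entries with at least 50 counts in the barcodes compared, 5.32%, 2.66% and 5.54% were that much higher in the 3 lines.

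The ends of the ranking differed in depth and in how well they separated. Median counts per barcode at the top and bottom were 5742 and 3923.5 in ERBB2-high, 6206 and 5882 in RARRES2-high and 6271 and 4481 in FOLR1-high cells. In ERBB2-high cells 239 of 648 barcodes had no S-phase count, so the bottom was drawn from ties at 0, while 41 of 473 RARRES2-high barcodes had none. The part of depth in these ratios was not tested. The list of 21 G2 and mitosis genes gave BRCA1 ratios of 19.8 in ERBB2-high (7.55 to 73.9), 1.84 in RARRES2-high (1.03 to 3.43) and 8.25 in FOLR1-high cells (3.33 to 26.4). For BRCA2 that list gave 88 counts against 1 in ERBB2-high cells (56.3, 9.84 to 2249) and ratios of 2.32 in RARRES2-high (1.28 to 4.46) and 16.9 in FOLR1-high cells (6.37 to 63.3). RAD51C had 2.03, 1.21 and 2.04 in ERBB2-high, RARRES2-high and FOLR1-high cells and PARP2 3.20, 1.66 and 2.001. In RARRES2-high cells MSH6 had 0.837 (0.552 to 1.27) and PARP1 1.04 (0.834 to 1.30), against 2.83 and 2.23 on the S-phase list. Members at least 2-fold higher at the top numbered 4 in ERBB2-high, 1 (BRCA2) in RARRES2-high and 4 in FOLR1-high cells. On that list 5.98%, 3.88% and 5.84% of all entries were at least 2-fold higher at the top in ERBB2-high, RARRES2-high and FOLR1-high cells. In this ranking too 244 of 648 ERBB2-high barcodes were tied at 0. Median counts at the top and bottom were 5956.5 and 4041.5 in ERBB2-high, 7222 and 5233 in RARRES2-high and 6216 and 4454 in FOLR1-high cells. The S-phase list itself summed to 658 CPM in ERBB2-high, 1160 CPM in RARRES2-high and 1265 CPM in FOLR1-high cells, and the G2 and mitosis list to 2309, 3698 and 2631 CPM. FOLR1-high cells, lowest in BRCA1, were thus highest in the S-phase sum and between the other 2 lines in the G2 and mitosis sum.

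**Figure D5:**
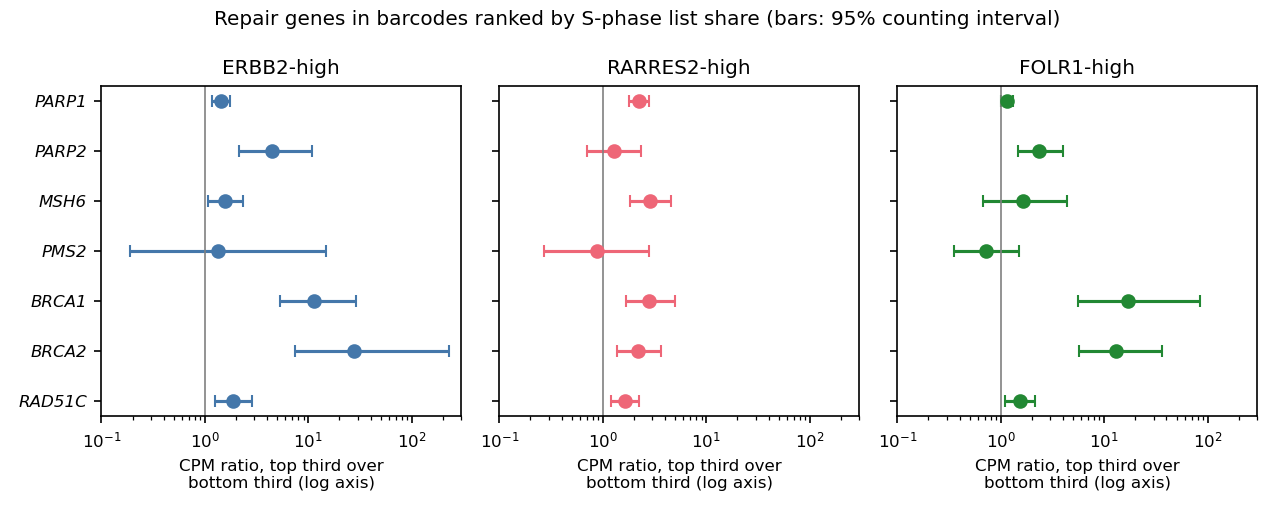
Ratio of CPM between barcodes at the top and at the bottom of the S-phase ranking for each repair gene in each line, on a log axis with 95% counting intervals and a grey line at a ratio of 1. BRCA1 and BRCA2 lie at 11.3 and 27.6 in ERBB2-high and at 16.9 and 12.9 in FOLR1-high cells, but at 2.81 and 2.20 in RARRES2-high cells.

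Some members, though not PMS2, were higher at the top of the S-phase ranking. The promoters of all 7 were searched for the E2F core TTCCCGC on both strands, in the RefSeq windows from 250 bases before to 50 bases after each start (GRCh38.p14). Whether these letters bear on the ratios was not tested. The core was found in at least 1 window of 4 of the 7 members, PARP1, PARP2, MSH6 and BRCA1, and, counted the same way, in 7.82% of all 27305 genes. By window it was in 6 of the 13 windows of the members, which partly overlap, and in 6.55% of all 35116 windows. It was not among the letters of the BRCA2, PMS2 or RAD51C windows. CCAAT, the NF-Y letters, was in a window of 3 members, MSH6, PMS2 and BRCA1, and of 39.7% of all genes, or in 4 of 13 and 34.6% of windows. Searched in the same way, the CHR element TTTGAA was in 0 of 13 windows (15.2% of all), the GC box GGGCGG in 9 (44.95%) and the ETS core CGGAAG in 4 (19.5%). The 250 bases upstream of the BRCA1 start are printed with both matches in capitals, the E2F core as its reverse complement GCGGGAA (chr17:43125365-43125614, minus strand), and those of BRCA2, where neither was found, beside them (chr13:32315258-32315507, plus strand). A match is a description of letters and not a binding site.
BRCA1 upstream: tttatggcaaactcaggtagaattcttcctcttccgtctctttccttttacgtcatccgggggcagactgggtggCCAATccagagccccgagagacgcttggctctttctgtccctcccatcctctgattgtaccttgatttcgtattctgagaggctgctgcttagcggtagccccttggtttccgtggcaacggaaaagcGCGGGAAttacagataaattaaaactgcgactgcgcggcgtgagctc
BRCA2 upstream: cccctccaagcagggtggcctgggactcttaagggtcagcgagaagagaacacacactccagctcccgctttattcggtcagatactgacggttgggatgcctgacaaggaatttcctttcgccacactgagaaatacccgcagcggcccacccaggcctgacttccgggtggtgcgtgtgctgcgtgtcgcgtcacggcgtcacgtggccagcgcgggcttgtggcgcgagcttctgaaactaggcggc

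The PARP family list held 19 genes, including the chain-removing enzymes PARG and ADPRS and the PARP1 cofactor HPF1. The counts of this and the next lists stand beside the shares of all entries at least 2-fold higher. These were 21.1% in ERBB2-high over RARRES2-high cells and 13.0% in the reverse, 26.0% and 9.36% for ERBB2-high and FOLR1-high cells, and 21.9% and 12.9% for RARRES2-high and FOLR1-high cells. Between ERBB2-high and RARRES2-high cells 3 of 16 measured PARP family genes were at least 2-fold higher in each direction, near those shares. PARP8 was 8.59-fold (4.71 to 17.1) and HPF1 4.05-fold (3.20 to 5.16) higher in ERBB2-high cells, and the antiviral ZC3HAV1 6.46-fold (4.58 to 9.36) and PARP9 3.25-fold (2.29 to 4.69) higher in RARRES2-high cells. Between ERBB2-high and FOLR1-high cells 5 of 15 were higher in the first, led by TIPARP at 4.40-fold (2.52 to 8.06) and PARP14 at 2.82-fold (2.30 to 3.46), and ZC3HAV1 was higher in FOLR1-high cells at 3.53-fold (2.48 to 5.16). Between RARRES2-high and FOLR1-high cells 4 of 16 were higher in the first, led by TIPARP at 8.33-fold (4.97 to 14.8) and PARP9 at 8.32-fold (5.28 to 13.7). In the other direction PARP8 was 3.99-fold (2.13 to 8.12) and HPF1 3.14-fold (2.482 to 3.997) higher in FOLR1-high cells. HPF1, which directs PARP1 to serine residues, thus had its lowest level, 26.3 CPM, in RARRES2-high cells. PARP1 was also lowest there in CPM, but its ratio of ERBB2-high to RARRES2-high cells was only 1.13 (1.01 to 1.26). With mitochondrial and ribosomal protein genes left out of the scaling, the interval of that ratio included 1 (0.980 to 1.22). The list's median log2 ratios were 0.01, 0.56 and 0.27 for the 3 pairs, beside 0.21, 0.45 and 0.20 for all entries.

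The mismatch repair list held 22 genes. In the pair of ERBB2-high and RARRES2-high cells 2 of 20 were at least 2-fold higher in the first, MLH3 at 3.18-fold (2.01 to 5.20) and PMS1 at 2.09-fold (1.35 to 3.28), both MutL homologues, and 3 in the second, among them RPA3 at 2.68-fold (2.33 to 3.10) and POLD2 at 2.25-fold (1.95 to 2.60). Against FOLR1-high cells 2 of 21 were higher in ERBB2-high cells, MSH6 and MSH3, and 4 were lower, led by PMS2 and by RPA3 at 2.98-fold (2.61 to 3.42). MSH6 was the only one of 21 that was 2-fold higher in RARRES2-high than in FOLR1-high cells, where the next, MSH3, was at 1.83-fold (1.09 to 3.13). PMS1 and MLH3 were 2.78-fold (1.87 to 4.25) and 2.72-fold (1.73 to 4.43) higher in FOLR1-high than in RARRES2-high cells. The median log2 ratios were 0.08, -0.16 and -0.18.

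The homologous recombination list held 37 genes. Between ERBB2-high and RARRES2-high cells 7 of 30 were higher in the first and 5 in the second, near the 21.1% and 13.0% of all entries. RBBP8, whose protein CtIP trims break ends together with BRCA1, had 539 CPM in ERBB2-high, 74.3 CPM in RARRES2-high and 32.8 CPM in FOLR1-high cells, 7.26-fold (6.36 to 8.32) and 16.5-fold (13.9 to 19.6) higher in the first. ABRAXAS1, of the BRCA1-A complex, was 5.03-fold higher in ERBB2-high than in RARRES2-high cells (3.23 to 8.15). RMI2, of the complex that dissolves joined DNA molecules, was 7.03-fold (3.60 to 15.3) and the nuclease subunit EME1 4.51-fold (2.498 to 8.73) higher in RARRES2-high than in ERBB2-high cells.

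Between ERBB2-high and FOLR1-high cells 3 of 34 recombination genes were higher in the first, BRCA1, RBBP8 and the end-binding RAD50 at 2.98-fold (2.59 to 3.43). Another 5 were higher in FOLR1-high cells, led by XRCC2 at 4.24-fold (2.06 to 9.80) and RMI2 at 3.51-fold (1.75 to 7.79). Between RARRES2-high and FOLR1-high cells 5 of 33 were higher in the first, among them SWI5 at 2.71-fold (2.24 to 3.28) and RAD50 at 2.70-fold (2.34 to 3.12), and 3 were lower, among them ABRAXAS1 at 3.55-fold (2.27 to 5.77) and BABAM2 at 3.34-fold (2.48 to 4.57). BARD1, the obligate partner of BRCA1, had 42.4, 53.0 and 46.5 CPM in ERBB2-high, RARRES2-high and FOLR1-high cells. PALB2, which joins BRCA1 to BRCA2, had 6.97, 13.6 and 7.97 CPM, and XRCC3, the partner of RAD51C, 8.71, 8.88 and 6.20 CPM. The list's median log2 ratios were 0.12, -0.09 and 0.19.

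In the lists without a member, FANCF, a core subunit of the Fanconi anaemia complex, had 95 counts in ERBB2-high, 58 in RARRES2-high and 1 in FOLR1-high cells, ratios to FOLR1-high cells of 125 (21.8 to 4973) and 77.5 (13.4 to 3114). Among the end-joining genes LIG4 was 5.17-fold (2.69 to 10.9) higher in ERBB2-high than in RARRES2-high cells and POLM 5.57-fold (3.19 to 10.4) higher in RARRES2-high cells. Among the base excision genes APEX1 was 3.49-fold (3.03 to 4.03) higher in FOLR1-high than in RARRES2-high cells and MPG 3.06-fold (2.43 to 3.89) higher in ERBB2-high than in FOLR1-high cells. Of 12 Fanconi genes 6 were at least 2-fold higher in RARRES2-high than in ERBB2-high cells and 0 lower, beside 13.0% and 21.1% of all entries. The median log2 ratio of ERBB2-high to RARRES2-high cells was -0.87 for the list and 0.21 for all entries. In ERBB2-high and FOLR1-high cells 2 and 1 of 12 were higher, and in RARRES2-high and FOLR1-high cells 3 and 0 of 13.

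Among 135 genes of these lists, likeness to each member was measured as the distance between log2 CPM centred over the 3 lines, a description over 3 points only. BRCA2 had the closest neighbours, the helicase gene BLM at 0.03 and BARD1 at 0.07. PARP2 was nearest to TDP1 at 0.07 and SLX4 at 0.13, PARP1 to RAD54B at 0.18 and PARG at 0.20, and BRCA1 to FANCL at 0.20 and ADPRS at 0.21. RAD51C was nearest to PARP6 at 0.24 and PALB2 at 0.25, and PMS2 to XRCC2 at 0.35 and ATRIP at 0.57. MSH6 stood apart, with TIPARP at 0.90 and MPG at 0.92 as its nearest.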

How the data were processed

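The values of the PromethION library are estimated counts of each transcript in each barcode, deposited by the authors without normalisation. The series' design text names Isosceles. Per the submitters' processing notes the build was GRCh38 and Cell Ranger 6.0.1 was used, with no role given. No source used here gives the aligner, the annotation release, the use of strand or whether molecular identifiers were collapsed. A read shared by transcripts is split within its gene, and all sums of the members per gene and barcode were whole.

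Counts were summed per gene, rounded and scaled to 1000000 counts of the line (3442383 in ERBB2-high, 3377992 in RARRES2-high and 4514999 in FOLR1-high cells). Intervals are exact Poisson for levels, Clopper-Pearson for shares and conditional binomial for ratios (scipy 1.17.1). Doublets were not called beyond the 75% marker rule. Scrublet (scanpy 1.11.5) was an alternative and called 77 barcodes (3.13%). An estimate within 0.01 of a whole number counted as whole. Exon structures and transcript sequences come from GENCODE release 29 (GRCh38), matched for all 31 transcripts, and promoters from RefSeq (GRCh38.p14), found for 7 of 7 members. The scripts were tested on simulated data.

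Some genes of the lists are not reported here. The members and gene lists were chosen with earlier results of these data known. Named were the members, partner genes of members, the 2 highest and 2 lowest ratios in each pair of lines for the lists that hold a member, and a few of those for the other lists.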

Additional observations from a re-analysis of the deposited data

Results flagged for a closer look

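Barcodes outside the 3 lines also held counts of the members, and they entered no comparison. The 243 barcodes with at least 1000 counts whose markers named no line had 199.7 CPM of PARP1 (178 to 223), 24.9 CPM of PARP2 (17.8 to 33.9), 45.4 CPM of MSH6 (35.6 to 57.1) and 4.98 CPM of PMS2 (2.15 to 9.81). They had 24.3 CPM of BRCA1 (17.3 to 33.2), 33.6 CPM of BRCA2 (25.2 to 43.8) and 72.8 CPM of RAD51C (60.2 to 87.3). Of these barcodes 208 carried markers of more than 1 line and 35 had no marker count. All 7 levels lay between the lowest and the highest of the 3 lines.

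The 333 barcodes with under 1000 counts held 110420 counts in all, so 3 counts correspond to 27.2 CPM. PARP1 had 10 counts there (90.6 CPM, 43.4 to 167), MSH6 had 8 (72.5 CPM, 31.3 to 143), BRCA1 had 6 (54.3 CPM, 19.9 to 118), RAD51C had 5 (45.3 CPM, 14.7 to 106) and PARP2 had 4 (36.2 CPM, 9.87 to 92.8). The PARP1 interval ended below the level of each of the 3 lines.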

How the results depend on the processing

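No paired analysis was possible because the lines share 1 library and no result comes from a test. The alternatives with the deeper barcodes of each line and with the CXCL14-led and DEFB1-led FOLR1-high barcodes were chosen after seeing the data. Of the alternative values of the main results, which leave out most ratios of single members, 190 stayed within the limits set for them, 38 moved and 0 reversed. Of the remaining values 299 stayed and 59 moved. Some of those ratios crossed 1. BRCA2 in ERBB2-high over FOLR1-high cells ran from 0.673 to 1.22 and in RARRES2-high over FOLR1-high cells from 0.876 to 1.58. PARP2 in ERBB2-high over RARRES2-high cells ran from 0.777 to 1.17. Scaling without mitochondrial and ribosomal protein genes moved the median entry by -0.34 (log2) in ERBB2-high over FOLR1-high cells and by -0.30 in RARRES2-high over FOLR1-high cells. PARP1 in RARRES2-high over FOLR1-high cells then had a ratio of 0.468, members past 2-fold in that pair rose to 2, and BRCA1 in ERBB2-high over FOLR1-high cells was 1.61. With CXCL14-led or DEFB1-led barcodes alone the PARP1 ratio was 0.479 or 0.644. With whole estimates only, MSH6 over FOLR1-high cells was 3.10 (ERBB2-high) and 1.94 (RARRES2-high), and PARP2 shares with the 39 bases were 36.8%, 93.7% and 11.8%. Members past 20 points were then 1, 1 and 0, since PARP2 fell under 20 counts in 2 lines, against 6.32%, 5.34% and 8.01% of entries.

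In the order ERBB2-high and RARRES2-high, ERBB2-high and FOLR1-high, RARRES2-high and FOLR1-high, a fold of 1.5 gave 55.8%, 58.2% and 55.4% of entries, 70, 62 and 69 repair list genes, and 1 and 4 members in the first and last pair. A fold of 3 gave 16.5%, 16.8% and 18.6% of entries. A minimum of 1 count gave 51.5% and 52.8% of entries in the first and last pair and 1 member in the first, and a minimum of 200 counts gave 0 members in the last. A limit of 10 points gave 15.8%, 15.4% and 18.4% of entries and 3, 3 and 1 members, and one of 30 points gave 0.800%, 0.865% and 1.19%, with 0 and 1 members in the first 2 pairs. Depth limits PMS2 most, with 7 counts in ERBB2-high cells.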
